A study of Mus musculus with 2 samples.

Results

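The genes described here encode the transcriptional repressor complexes of chromatin: the Polycomb complexes, the enzymes and readers of H3K9 methylation, the DNA methylation machinery, and the NuRD, Sin3, NCoR and CoREST corepressors with the deacetylase Sirt1. They were listed by name, with earlier results of these data known. The 37 names stand for 36 genes, because Aof2 is the older symbol of Kdm1a, and all 36 were among the 18078 genes tested. Expression was measured in C2C12, an established line of myoblasts from adult C3H mouse leg muscle. Cells that stably expressed a short hairpin RNA (shRNA) against Mybbp1a were compared with cells that stably expressed a control shRNA, so both carried a hairpin. Both populations were mixtures of stable clones and were grown at subconfluent density in serum-rich growth medium. On each of 2 arrays, knockdown RNA was labelled with Cy5 and control RNA with Cy3, with no dye swap, so a dye bias left by normalization cannot be told apart from the knockdown. The labels call the arrays biological replicates without saying whether they came from separate infections or cultures, so the p-values cover the spread between these 2 samples alone and that spread may be technical. Each array had a slide of its own, and an effect of the slide cannot be told apart from the replicate.

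Polycomb repressive complex 2 (PRC2) methylates H3K27 through its catalytic subunits Ezh1 or Ezh2, and Polycomb repressive complex 1 (PRC1) reads that mark through Cbx subunits and ubiquitinates H2A through Ring1 or Rnf2. Methylation of H3K9 by the Suv39h, Ehmt and Setdb enzymes is bound by HP1 proteins, and DNA methylation is written by Dnmt3a and Dnmt3b and copied at replication by Dnmt1 with Uhrf1. In myoblasts such complexes are known to hold muscle genes silent until differentiation, and Mybbp1a is a nucleolar protein that is known as a co-repressor of several transcription factors.

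The value given for a gene is the log2 ratio of knockdown over control on each array, where 0 is equal signal, 1 is 2-fold higher in the knockdown and negative values are lower. Mybbp1a itself had log2 ratios of -1.64 and -1.91, averaging -1.78 ± 0.19 (SD, n = 2; limma standard error 0.11), and a Benjamini-Hochberg adjusted p of 0.179. At an adjusted p of 0.05, limma called 0 genes higher and 0 lower, so percent called was 0% in each direction. At an unadjusted p of 0.05, 2416 genes (13.4%) were higher and 1347 (7.45%) lower. The median over all genes tested was 0.03. Centring each array on its median in place of the loess curve moved that median to 0.21, and limma then called 3046 genes higher and 58 lower. Ratios are therefore also given relative to the median of all genes. All 8 myoblast markers, Myod1, Myf5 and Des among them, were well above background in both channels on both arrays, and Ptprc, which marks leukocytes, was not in either channel of either array.

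All 36 repressor genes were well above background in both channels on both arrays. Most of them lay close to equal signal: 31 had a mean within 0.3 of 0 on the log2 scale. Cbx7 and Ezh1 were the highest, and Suv39h2, Uhrf1 and Mbd3 the lowest. Of the 36, 17 (47.2%) were below 0 on both arrays, where 29.4% of all genes tested were, and 6 (16.7%) were above 0 on both, where 40.6% of all genes were. The other 13 had opposite signs on the arrays. With median centring the same counts were 2 lower and 27 higher, beside 12.2% and 65.4% of all genes, so the preponderance of lower values did not hold under that scaling. The members' median was -0.06, which was 0.09 below that of all genes, and under median centring it was 0.05 above it.

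**Figure D1:**
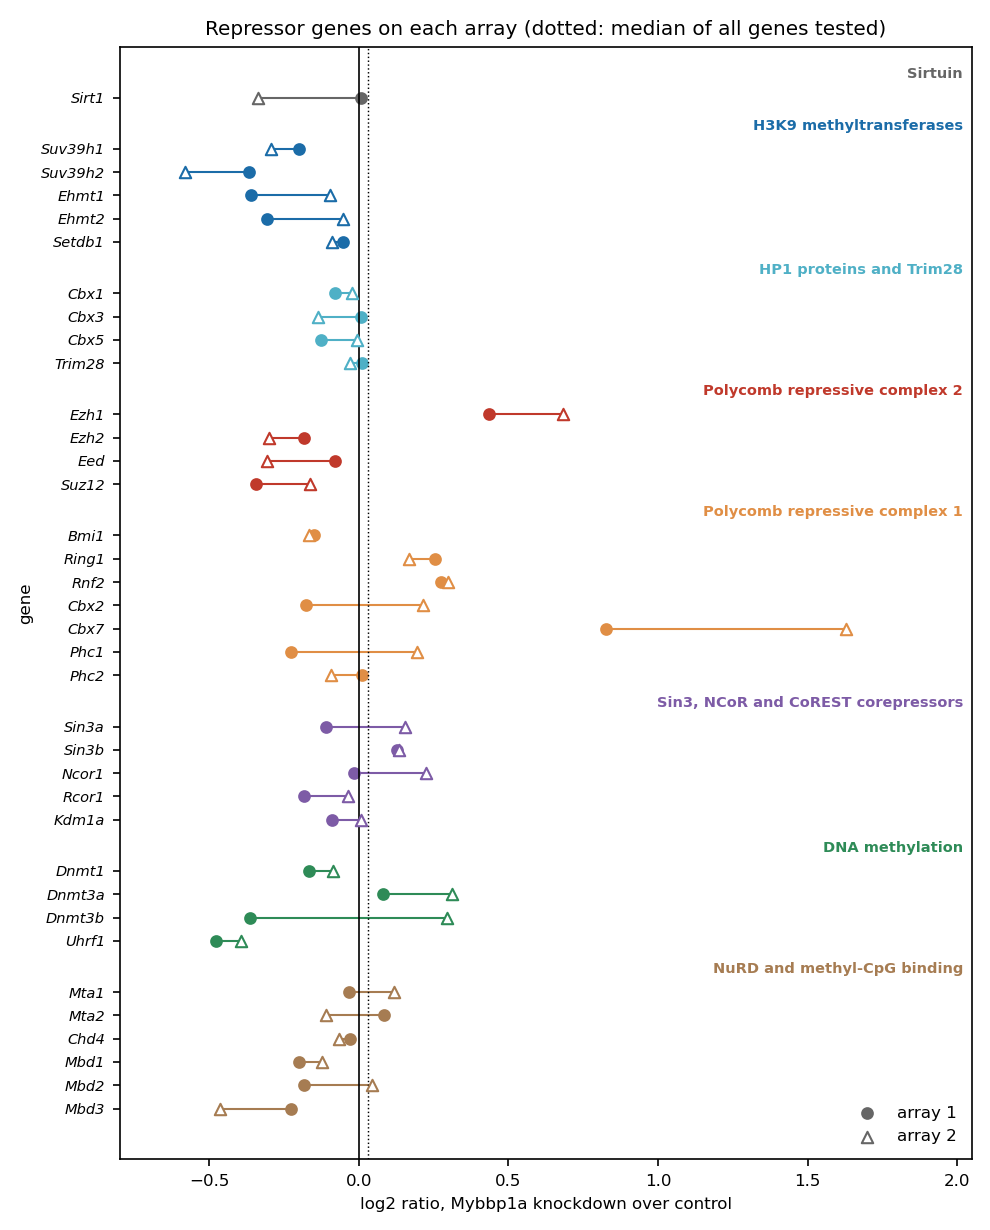
The log2 ratio of knockdown over control (x axis) of each of the 36 genes (rows, grouped by complex) on array 1 (filled circles) and array 2 (open triangles), with a line joining the 2 values and a dotted line at the median of all genes. Cbx7, at 0.83 and 1.63, and Ezh1, at 0.43 and 0.68, lie to the right of the rest, and all 5 H3K9 methyltransferases lie left of 0 on both arrays with loess normalization, though with median centring only Suv39h2 does.

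None of the 36 passed limma's threshold, and their Benjamini-Hochberg adjusted p ranged from 0.184 to 0.958 beside a lowest value of 0.179 over all genes. At an unadjusted p of 0.05, limma had 3 members higher (Cbx7, Ezh1 and Rnf2) and 3 lower (Suv39h2, Uhrf1 and Mbd3), 8.33% each, where 13.4% and 7.45% of all genes were. A mean of at least 0.3 with 1 sign on both arrays was reached by 3 members lower (8.33%) and 2 higher (5.56%), against a background of 7.57% lower and 14.8% higher. These shares were near the background or below it. A ratio of at least 2-fold on both arrays was reached by 0 members, by 0.631% of all genes in the higher direction and by 0.0553% in the lower. Feature Extraction's own p-value for a single array, deposited by the authors, was under 0.01 on both arrays in 1 direction for 1 member, Cbx7, and was so for 3.25% of all genes higher and 0.83% lower. The smallest p that an exact test by flipping signs can reach with 2 arrays is 0.5, so that test cannot call any gene here.

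The arrays ordered the members alike only in part. Over the 36 genes the correlation between arrays was 0.76 (Pearson) and 0.47 (Spearman), and over all genes the Pearson correlation was 0.53. Without Cbx7 and Ezh1, the 2 highest genes, Pearson's coefficient over the remaining 34 was 0.44 and Spearman's 0.37, so the higher figure rested on those 2. Genes are not independent replicates, and the points share their 2 arrays. Among the 13 genes with opposite signs, Dnmt3b had the widest gap, at -0.36 on array 1 and 0.29 on array 2, and among all 36 the gap of Cbx7 was wider still.

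**Figure D2:**
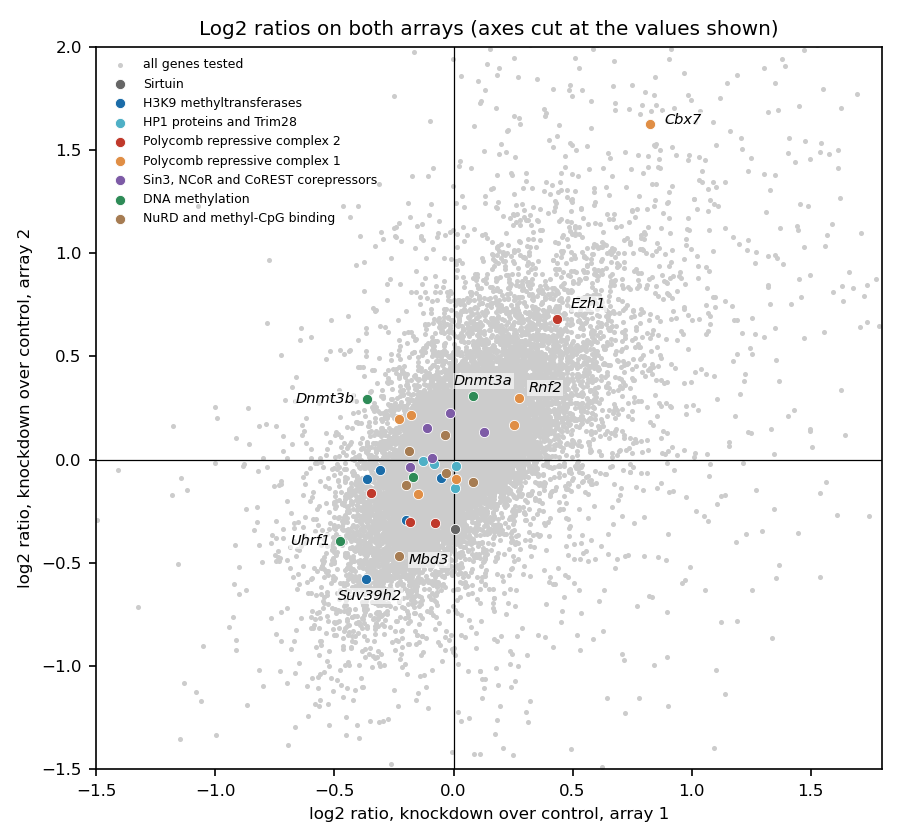
Log2 ratio of knockdown over control on array 1 (x axis) against array 2 (y axis) for all genes tested (grey) and the 36 repressor genes (coloured by complex). Cbx7 and Ezh1 lie in the upper right quadrant, apart from the cluster of other members around 0, and Dnmt3b lies in the upper left, with opposite signs on the arrays.

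The subunits of PRC2 did not move as a unit. Ezh1, the catalytic subunit that predominates in non-dividing tissue, was higher in the knockdown, at 0.43 on array 1 and 0.68 on array 2, and its normalized signal was 330.1 in control against 445.8 in knockdown RNA on array 1 and 288.2 against 462.7 on array 2. The knockdown channel was the brighter on both arrays, by 1.47-fold on average, and the ratio was the 1025th highest of 18078. The mean was 0.56 ± 0.18 (SD, n = 2), with a limma standard error of 0.10 and an adjusted p of 0.184. Ezh2, the catalytic subunit of proliferating cells, was at -0.18 and -0.30. Suz12, the subunit that holds the complex together, was at -0.35 and -0.16, and a second probe read -0.14 and -0.26. Eed, which binds trimethylated H3K27, was at -0.08 and -0.31. Ezh2, Eed and Suz12 were thus below 0 on both arrays with loess but were not with median centring, where their means were 0.05, 0.11 and 0.07, all below the 0.21 of all genes.

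The distance between the paralogs is unchanged by a constant shift of 0 on an array, but loess sets 0 by brightness. The mean log2 intensity was 8.5 for the Ezh1 probe and 12.8 for the Ezh2 probe. Ezh1 minus Ezh2 was 0.62 on array 1 and 0.98 on array 2, averaging 0.80 ± 0.26 (SD, n = 2), and lay between 0.67 and 0.87 under every alternative processing that kept both arrays. The difference of Ezh1 from Suz12 was 0.81 ± 0.05 and from Eed 0.75 ± 0.34 (SD, n = 2). The probes for Ezh1 and Ezh2 share no run of identical bases longer than 6. The Ezh1 probe lies on chr11:101007913-101007972, minus strand (mm8). The probes for Ezh2 and Eed are shown because each spans an intron and so reads spliced RNA: Ezh2 on chr6:47461634-47462529 and Eed on chr7:89840003-89842912, both on the minus strand (mm8). Whether the other probes lie in coding or untranslated exons was not determined here.
Ezh2 probe: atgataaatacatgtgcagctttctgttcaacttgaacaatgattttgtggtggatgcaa
Eed probe: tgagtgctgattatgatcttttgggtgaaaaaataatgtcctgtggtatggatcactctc

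**Figure D3:**
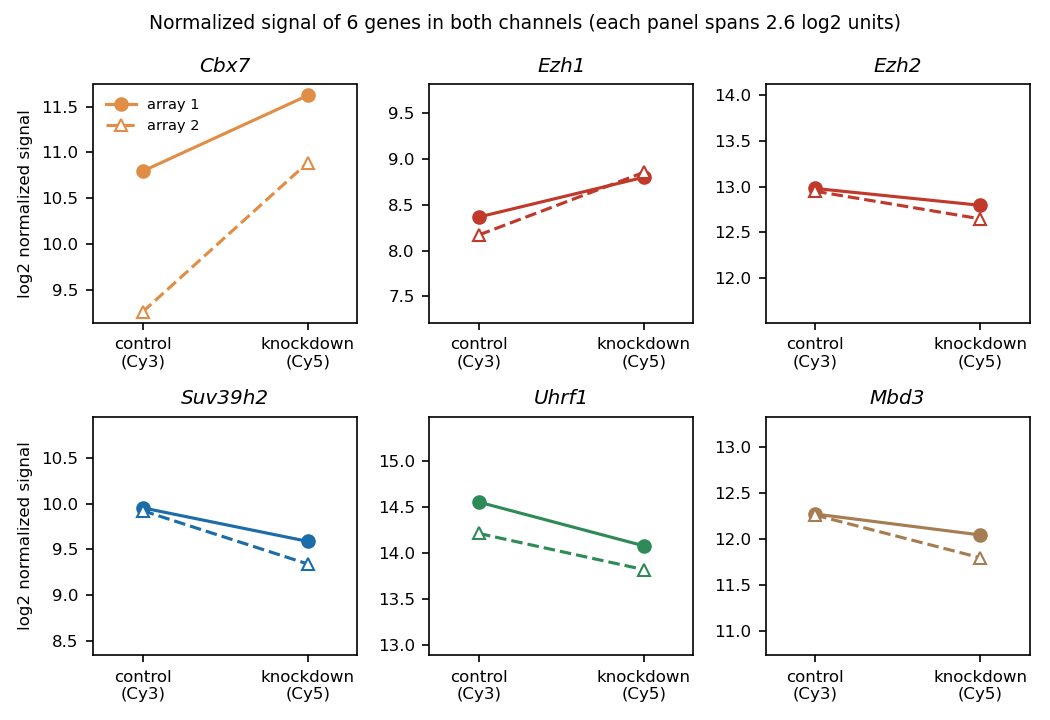
Normalized signal on a log2 scale (y axis) of 6 genes in control RNA (Cy3) and knockdown RNA (Cy5) on array 1 (filled circles, solid lines) and array 2 (open triangles, dashed lines), with each panel drawn to the same span. The lines rise from control to knockdown for Cbx7 and Ezh1 and descend for Ezh2, Suv39h2, Uhrf1 and Mbd3 on both arrays with loess normalization, while with median centring the mean of Ezh2 was 0.05, above 0.

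Within PRC1 the chromodomain subunit Cbx7, which docks the complex on trimethylated H3K27, stood apart. Its normalized signal was 1777 in control and 3151 in knockdown RNA on array 1, and 613.3 against 1895 on array 2. The knockdown signal was higher on both arrays. Signals were not scaled between arrays, so they are compared within each array only. Its log2 ratios were 0.83 (array 1) and 1.63 (array 2) and averaged 1.23 ± 0.57 (SD, n = 2), which is 2.34-fold higher. The limma standard error was 0.23 and the Benjamini-Hochberg adjusted p 0.184. It was the 163rd highest of 18078, and the only member with a mean of at least 2-fold. Feature Extraction's single-array p for this probe, as the authors deposited it, was 0.000305 on array 1 and 5.55e-11 on array 2. Cbx7 was read by 1 probe, on chr15:79743093-79743152, minus strand (mm8), with a G+C content of 28.3%. Under a regression on probe G+C content the difference of Cbx7 from Bmi1 was 1.39, beside 1.38 without it.

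The catalytic ubiquitin ligases Ring1 and Rnf2 were the other PRC1 members above 0 on both arrays. Ring1 was at 0.26 and 0.17 and Rnf2 at 0.27 and 0.30, but the second Rnf2 probe read 0.02 and -0.01, so the probes of Rnf2 disagreed. Bmi1, the Pcgf subunit that stimulates the ligases, was at -0.15 and -0.17, and its second probe read -0.31 and -0.45. With median centring the Bmi1 mean was 0.12. Cbx2, the chromodomain paralog of Cbx7, was at -0.18 and 0.22, the Polyhomeotic protein gene Phc1 at -0.23 and 0.20, and Phc2 at 0.01 and -0.09. Those 3 genes had opposite signs on the arrays, and the median of the 7 PRC1 genes was 0.02, close to that of all genes, while with median centring it was 0.37.

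All 5 H3K9 methyltransferases were below 0 on both arrays with loess normalization, with a median of -0.23, while with median centring the median was 0.07, still 0.15 below that of all genes. Suv39h2, one of the paired enzymes that trimethylate H3K9 in pericentric heterochromatin, was the lowest of the 36. Its normalized signal was 991.3 in control and 769.2 in knockdown RNA on array 1 and 969.8 against 648.4 on array 2. The knockdown value was below the control value on each array. Its log2 ratios were -0.37 (array 1) and -0.58 (array 2) and averaged -0.47 ± 0.15 (SD, n = 2), which is 1.39-fold lower. The limma standard error was 0.10 and the Benjamini-Hochberg adjusted p 0.187. A second probe read -0.35 and -0.43, and the mean under median centring was -0.24. Its paralog Suv39h1 was at -0.20 and -0.29, a distance of 0.23 ± 0.09 (SD, n = 2) above Suv39h2.

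The euchromatic H3K9 methyltransferases Ehmt1 and Ehmt2, which work as a heterodimer, were further below 0 on array 1 than on array 2. Ehmt1 was at -0.36 and -0.10 and Ehmt2 at -0.31 and -0.05, and the distance between them was -0.06 on array 1 and -0.04 on array 2. Setdb1, the enzyme that Trim28 brings to retroelements, was at -0.05 and -0.09. Under median centring Suv39h1, Ehmt1, Ehmt2 and Setdb1 had means of 0.02, 0.07, 0.26 and 0.18, of which only that of Ehmt2 was above the 0.21 of all genes.

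The readers of H3K9 methylation lay close to equal signal. The HP1 genes Cbx1, Cbx3 and Cbx5 were at -0.08 and -0.02, at 0.01 and -0.14, and at -0.13 and -0.01. Trim28, the scaffold that links zinc finger proteins to Setdb1 and HP1, was at 0.01 and -0.03. The median of these 4 was -0.06, or 0.09 below that of all genes, and with median centring it was 0.32, or 0.11 above it.

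Among the DNA methylation genes, Uhrf1, the protein that recognises hemimethylated DNA and recruits Dnmt1, was the lowest. Its normalized signal was 24092 in control and 17306 in knockdown RNA on array 1, and 19007 against 14457 on array 2. On each array the knockdown signal was below the control signal. Its log2 ratios were -0.48 (array 1) and -0.39 (array 2) and averaged -0.44 ± 0.06 (SD, n = 2), which is 1.35-fold lower. The limma standard error was 0.08 and the Benjamini-Hochberg adjusted p 0.185. A second probe read -0.29 and -0.29. With median centring the mean of Uhrf1 was -0.07, which was 0.29 below the median of all genes.

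The maintenance methyltransferase Dnmt1 was at -0.17 and -0.09 with loess, and its mean was 0.16 with median centring. The de novo enzyme Dnmt3a was at 0.08 and 0.31, above 0 on both arrays. Dnmt3b, the other de novo enzyme, had opposite signs, and its normalized signal was 459.4 in control and 356.9 in knockdown RNA on array 1 against 239.9 and 294.2 on array 2. Dnmt3a minus Uhrf1, which a constant shift of 0 on an array leaves unchanged, was 0.56 and 0.70, a mean of 0.63 ± 0.10 (SD, n = 2). It was 0.51 with median centring and stayed between 0.50 and 0.65 under the alternatives that kept both arrays. The probes of Dnmt1 (chr9:20657931-20658299, minus strand, mm8) and Dnmt3a (chr12:3906882-3907663, plus strand, mm8) span introns and are shown as the reads of spliced RNA behind these values.
Dnmt1 probe: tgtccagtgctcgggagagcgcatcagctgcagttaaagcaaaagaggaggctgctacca
Dnmt3a probe: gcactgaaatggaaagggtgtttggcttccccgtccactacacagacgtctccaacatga

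In the NuRD complex, which couples nucleosome remodelling to histone deacetylation, Mbd3 was the lowest subunit. Its normalized signal was 4943 in control and 4220 in knockdown RNA on array 1 and 4904 against 3551 on array 2. Its log2 ratios were -0.23 (array 1) and -0.47 (array 2) and averaged -0.35 ± 0.17 (SD, n = 2), which is 1.27-fold lower. The limma standard error was 0.10 and the Benjamini-Hochberg adjusted p 0.215. With median centring the mean of Mbd3 was -0.07. Mbd2, which takes the place of Mbd3 in a separate form of the complex and binds methylated DNA, was at -0.18 and 0.04. The distance of Mbd2 above Mbd3 was 0.28 ± 0.33 (SD, n = 2), smaller than its spread between arrays.

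The remodelling ATPase Chd4 was at -0.03 and -0.07. The scaffold subunits Mta1 and Mta2 were at -0.03 and 0.12, and at 0.08 and -0.11, with opposite signs. Mbd1, another methyl-CpG binding protein, was at -0.20 and -0.12, while a further Mbd1 probe had a mean of 0.09. The deacetylases that NuRD shares with Sin3 and CoREST were Hdac1, at -0.23 and -0.17, and Hdac2, at 0.03 and -0.50. Their limma adjusted p values were 0.287 and 0.478.

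The Sin3, NCoR and CoREST genes had no value beyond 0.3 in either direction on either array by their brightest probes. The Sin3 scaffolds Sin3a and Sin3b were at -0.11 and 0.15, and at 0.13 and 0.14, and a second tested Sin3b probe read -0.09 and -0.12. Ncor1, the nuclear receptor corepressor, was at -0.02 and 0.23, and the means of the 7 tested probes under its name ran from -0.03 to 0.35. Some of the 7 lie on the plus strand, opposite to the Ncor1 promoter, and may not read its RNA. Both ends of that range came from probes on the minus strand. Rcor1, the CoREST scaffold, was at -0.18 and -0.04, while its 3 probes ran from a mean of -0.11 to 0.24. The H3K4 demethylase Kdm1a was at -0.09 and 0.01. Sirt1, the NAD-dependent deacetylase, was at 0.01 and -0.34 by its brighter probe and at -0.38 and -0.59 by the other, so its probes differed on array 1 by more than the arrays differed on either probe.

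Where several probes read a gene, they bounded how firmly its direction can be stated. Of 75 probes for the 36 genes, 67 were tested, and 19 genes had more than 1. In 12 of these 19 all tested probes had means of 1 sign, among them Suv39h2, Uhrf1, Suz12, Bmi1, Sirt1 and Dnmt3a. The 7 with mixed signs were Chd4, Mbd1, Mbd2, Ncor1, Phc1, Rcor1 and Sin3b. Cbx7, Ezh1, Ezh2, Eed and Mbd3 each rested on 1 tested probe.

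A wider list of 78 genes of the same pathways was examined, of which 76 were tested. Of these, 33 (43.4%) were above 0 and 26 (34.2%) below 0 on both arrays, beside 40.6% and 29.4% of all genes tested. Their median was 0.03, as was that of all genes. At an unadjusted limma p of 0.05, 9 of the 76 were higher and 4 lower, both shares below the 13.4% and 7.45% of all genes. Hells, the chromatin remodeller needed for normal DNA methylation, was the lowest, at -0.53 and -0.78 with a limma adjusted p of 0.183. Jarid2, an accessory subunit that brings PRC2 to its targets, was at 0.39 and 0.71 with a limma adjusted p of 0.187. Of the 7 other PRC2 genes, 2 were above 0 and 3 below 0 on both arrays.

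The counts of the lists that follow stand beside 40.6% of all genes above 0 and 29.4% below 0 on both arrays with loess. Of 14 other PRC1 genes tested, 7 were above 0 and 4 below 0 on both arrays. Of 8 other genes of H3K9 methylation, 0 were above 0 and 5 below 0 on both arrays with loess, with a median of -0.09, whereas 5 were above 0 with median centring. Of 8 H3K9 and H3K27 demethylases tested, 5 were above 0 and 2 below 0 on both arrays with a median of 0.06, but with Feature Extraction's processed signals the counts were 4 and 4. Among the 9 other DNA methylation genes 3 were above and 4 below 0, among the 6 other NuRD genes 3 and 2, among the 18 other Sin3, NCoR and CoREST genes 8 and 5, and among the 6 other sirtuins 5 and 1. With median centring at most 1 gene of each of these lists was below 0 on both arrays.

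Genes that these systems are known to silence were mostly not well above background. Of 12 germline genes that are repressed by promoter DNA methylation, 3 (Brdt, Mael and Hormad1) were tested, and each had opposite signs on the arrays. Of the Polycomb targets that restrain proliferation, Cdkn2a did not reach this level in any channel and Cdkn2b did so in the knockdown channel of 1 array only, so no ratio is given for them.

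Most markers of proliferation were, like the low members, below 0 with loess. All 20 were tested, and 18 were below 0 on both arrays with loess, with a median of -0.23. Under median centring the median was 0.16 and 1 was below 0 on both arrays. Relative to the median of all genes, the markers' median was -0.26 with loess and -0.05 with median centring. On that relative scale Suv39h2, Uhrf1 and Mbd3 were at -0.45, -0.29 and -0.28 with median centring. The markers' loess median was lower on array 1 (-0.25) than on array 2 (-0.17), as were Uhrf1 and Dnmt1. Suv39h2, Ezh2 and Hells were lower on array 2. The summed normalized signal of the markers was 700878 in knockdown and 826740 in control RNA on array 1 and 617239 against 698400 on array 2. Their part in the values of Suv39h2, Uhrf1, Ezh2, Dnmt1 and Hells was not tested. Fibroblast markers were higher: 6 of 8 were tested, all 6 were above 0 on both arrays, and with median centring 5 were. Their summed signal was 39396 in knockdown and 18113 in control RNA on array 1 and 48403 against 7040 on array 2, and Col1a1 and Dcn made up most of it. Col1a1 was at 1.71 and 4.60, Pdgfra at 0.98 and 1.77, Dpt at 0.62 and 1.03 and Dcn at 0.25 and 1.38. The control channel of Dpt was above background on 1 array only. Lum, at 0.10 and 0.29, and Pi16, at 0.15 and 0.31, were closer to equal signal. The fibroblast markers Thy1 and Tcf21 were not well above background. As with Cbx7, the array 2 ratios were the larger ones, and the part of these markers in the values of Cbx7 and Ezh1 was not tested. In RNA from whole cultures, fewer cells of a type and less RNA per cell cannot be told apart.

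The myoblast markers had a median of 0.24 with loess and 0.55 with median centring, which was 0.21 and 0.34 above that of all genes. With loess 4 of the 8 were above 0 on both arrays, Sgca among them at 1.08 and 0.66, and 1 was below. With median centring all 8 markers were above 0 on both arrays. Their part in the members' values was not tested. Of the leukocyte markers, 4 of 7 were tested, with a median of 0.05, and Itgam and Adgre1 were not. Of the endothelial markers 4 of 5 were tested, with Cdh5 at 1.03 and 0.68 and its control channel above background on 1 array. Of the neural markers 5 of 6 were tested, with Mbp at 0.87 and 0.39, and of the adipocyte markers 2 of 6 were.

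The promoters of the members were read for 4 words bound by E2F factors, which control genes of the S phase: TTTCCCGC, TTTCGCGC, TTTGGCGC and TTTGCCGC, on both strands, none of which contains another. RefSeq (GRCm38.p6) gave windows of 300 bases, 250 before and 50 after the start of transcription, for 33 of the 36 genes. A word was found in 5 of the 16 members below 0 on both arrays that had a window (31.2%), in 0 of the 6 above 0 on both and in 1 of the 11 with opposite signs (Cbx3). Of all 27025 genes with a RefSeq window, 2.6% held one, over tested genes below 0 on both arrays 5.78% and over tested genes above 0 on both arrays 2.96%. Over all 33 members with a window the share was 18.2%, beside 4.19% of tested genes. Counted by window, 5 of 23 windows of the lower members (21.7%) and 2.26% of all windows held a word. With median centring only Uhrf1 of these 5 genes remained below 0 on both arrays. The stretches around the words are shown for the 5 lower genes, each 60 bases on the gene's own strand with the word in capitals, which reads as its reverse complement where the word lies on the opposite strand (Suv39h1 and the Dnmt1 word shown). The same Dnmt1 window held a further word, TTTGGCGC, on the gene's own strand just after the start of transcription. They lie on chr6:47595001-47595060 (minus strand, Ezh2), chr11:79992861-79992920 (plus, Suz12), chr17:56304102-56304161 (plus, Uhrf1), chrX:8074392-8074451 (minus, Suv39h1) and chr9:20952809-20952868 (minus, Dnmt1).
Ezh2 promoter: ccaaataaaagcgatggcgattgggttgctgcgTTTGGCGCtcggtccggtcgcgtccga
Suz12 promoter: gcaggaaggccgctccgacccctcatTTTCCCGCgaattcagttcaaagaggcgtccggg
Uhrf1 promoter: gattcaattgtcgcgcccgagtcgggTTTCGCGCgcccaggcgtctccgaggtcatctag
Suv39h1 promoter: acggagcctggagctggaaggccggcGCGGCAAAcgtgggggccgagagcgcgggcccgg
Dnmt1 promoter: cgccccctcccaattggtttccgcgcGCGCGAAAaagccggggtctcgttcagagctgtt

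A second motif of cell cycle promoters, the CHR (TTTGAA or TTCGAA, either strand), was found in 7 of the 33 members with a window (21.2%) and in 21.7% of all genes with one, a share close to the background. A match is a run of letters in this window and does not show that a factor binds there.

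Median centring reversed more signs than any other alternative tried. Under median centring limma called 4 of the 36 members higher at an adjusted p of 0.05. It called 3046 of all 18078 genes higher there, a larger share than that of the members. The 4 were Cbx7 (mean 1.49, limma adjusted p = 0.0298), Ezh1 (0.72, adjusted p = 0.0354), Rnf2 (0.59, adjusted p = 0.0379) and Sin3b (0.59, adjusted p = 0.0401). No member was called lower there, beside 58 of all genes. Relative to the median of all genes, Cbx7, Ezh1 and Rnf2 lay above it and Suv39h2, Uhrf1, Mbd3, Ezh2, Suz12 and Eed below it under both scalings. Members below the median of all genes numbered 28 of 36 with loess and 16 of 36 with median centring. By complex, the median relative to all genes was -0.26 with loess and -0.15 with median centring for the H3K9 methyltransferases, -0.25 and -0.13 for PRC2, and -0.11 and -0.08 for DNA methylation. The sign depended on the scaling for the other 4 groups of more than 1 gene, with -0.01 and 0.16 for PRC1, -0.0088 and 0.10 for Sin3, NCoR and CoREST, -0.09 and 0.02 for NuRD and methyl-CpG binding, and -0.09 and 0.11 for HP1 and Trim28. Array by array, before that subtraction, the loess median of the DNA methylation genes was -0.27 and 0.10 and that of the Sin3, NCoR and CoREST genes -0.09 and 0.14, so both turned sign between the arrays.

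**Figure D4:**
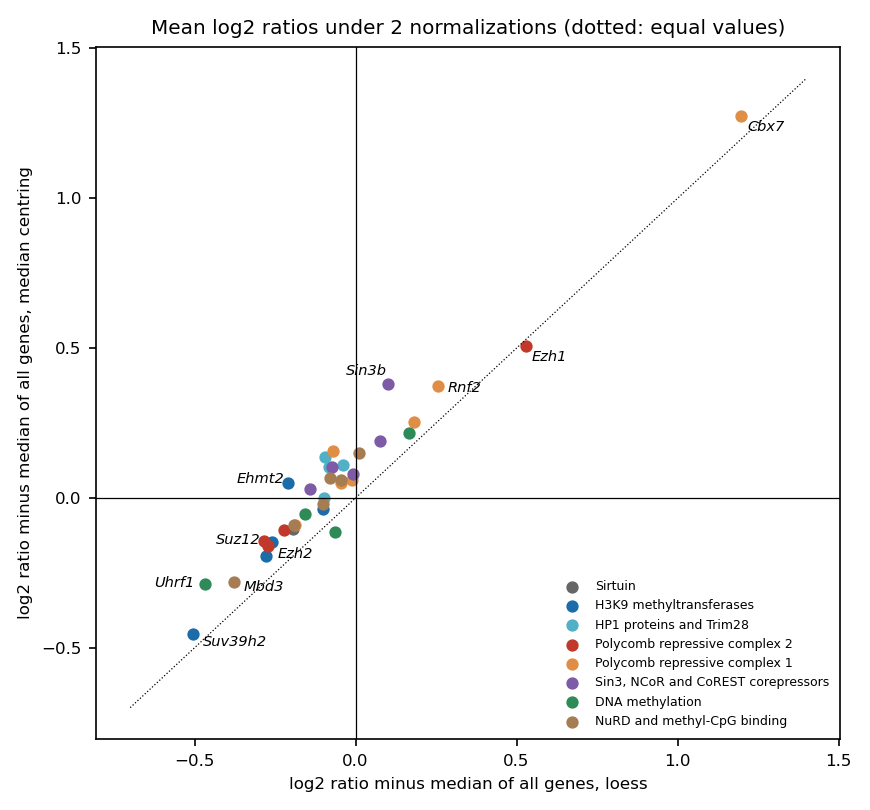
Mean log2 ratio of each of the 36 genes minus the median of all genes, with loess normalization (x axis) and with median centring (y axis), coloured by complex, with a dotted line at equal values. Cbx7 and Ezh1 lie at the upper right and Suv39h2, Uhrf1 and Mbd3 at the lower left under both, while others, such as Ehmt2, lie below 0 with loess and above 0 with median centring.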

How the data were processed

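The scans were quantified in Agilent Feature Extraction 9.5.3.1, per the submitters' processing notes. The deposited files hold each spot's mean intensity and local background in Cy5 and Cy3, together with Feature Extraction's log10 ratio and its p-value from the single array, per the file headers. The authors' deposited value table holds that ratio as log2. Probe coordinates are on mm8 per the file headers.

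Signals were corrected by normexp (offset 50) and normalized within arrays by loess (span 0.3), with limma 3.58.1 in R 4.3.3. The 1639 control spots had weight 0 and were left out, as were outlier spots (154 on array 1, 237 on array 2). Probes entered the test if Cy5 or Cy3 signal was well above background on both arrays, and the brightest such probe stood for its gene. Spots of 1 probe were averaged, and saturated spots were kept. Channel signals are after loess within each array and were not scaled between arrays. Ratios were tested against 0 (lmFit, eBayes, two-sided), with Benjamini-Hochberg adjustment over 18078 genes and 1 residual degree of freedom. The fit was tested on simulated data.

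Members were matched by the gene name in the files, with Aof2 read as Kdm1a and Rcor as Rcor1. Full statistics are given for members with 1 sign on both arrays and a mean of at least 0.3, and other listed genes are named from a mean of 0.5 with 1 sign, besides Mybbp1a, Hdac1 and Hdac2. The members and lists were chosen with earlier results of these data known. Alternatives were median centring, Feature Extraction's processed signals, an offset of 16, a span of 0.5, the deposited table, other filters and probe rules, leaving out saturated spots, a G+C regression and leaving out each array. The number of arrays limits the precision.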

Additional observations from a re-analysis of the deposited data

How the results depend on the processing

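Median centring changed most. It gave 3046 genes higher and 58 lower, a members' median of 0.26, 2 members below and 27 above 0 on both arrays, and medians of 0.066 for the H3K9 methyltransferases, 0.32 for HP1 and Trim28, 0.088 for PRC2, 0.37 for PRC1, 0.32 for Sin3, NCoR and CoREST and 0.23 for NuRD and methyl-CpG binding. Means reversed to Sirt1 0.11, Suv39h1 0.020, Ehmt1 0.066, Ehmt2 0.26, Setdb1 0.18, Cbx1 0.32, Cbx3 0.35, Cbx5 0.21, Trim28 0.32, Ezh2 0.054, Eed 0.11, Suz12 0.069, Bmi1 0.12, Phc1 0.26, Phc2 0.37, Rcor1 0.24, Kdm1a 0.32, Dnmt1 0.16, Dnmt3b 0.10, Mta2 0.27, Chd4 0.28, Mbd1 0.12 and Mbd2 0.19. The cause was not tested. Feature Extraction's processed signals reversed Phc1 (0.0053), Sin3a (-0.062) and Kdm1a (0.015) and moved the HP1 median to -0.028 and the NuRD median to -0.12. The deposited table, which held 34 members, gave the same 3 reversals, the same HP1 and NuRD medians, Sin3b at -0.085, and medians of -0.062 for Sin3, NCoR and CoREST, which turned its sign, and 0.074 for PRC1. The mean over tested probes gave Phc1 0.038, Rcor1 0.0057 and Chd4 0.0076, with medians of -0.065 for HP1 and -0.023 for NuRD, and a span of 0.5 gave -0.050 for HP1. A 2-fold rule on both arrays gave 114 genes higher and 10 lower.

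With 1 array left out, the members' median ran from -0.10 to -0.045, members above 0 on the remaining array from 11 to 14, and the medians from -0.036 to -0.027 for HP1, from -0.11 to -0.088 for NuRD, from 0.011 to 0.20 for PRC1, from -0.23 to -0.13 for PRC2, from -0.27 to 0.10 for DNA methylation, from -0.091 to 0.14 for Sin3, NCoR and CoREST and from -0.31 to -0.096 for the H3K9 methyltransferases. No test is defined there. Under every alternative that kept both arrays, Cbx7, Ezh1, Ring1, Rnf2, Dnmt3a, Ncor1, Cbx2 and Mta1 kept a mean above 0 and Suv39h2, Uhrf1 and Mbd3 one below 0. No paired analysis was possible because both arrays belong to 1 group and each ratio already pairs knockdown with control RNA. Signal did not limit the members, all above background; 2 arrays without a dye swap limit every call.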
